A study of Mus musculus with 4 samples.

Results

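A set of 7 genes of neuropeptide signalling were followed through the mesenchyme of the fetal mouse penis: the peptide precursor genes *Penk*, *Pnoc*, *Tac1*, *Nts* and *Adcyap1*, the opioid receptor gene *Oprk1* and the peptide receptor gene *Calcrl*. They were taken as a fixed list of 7 gene symbols out of 32287 features counted, and the list was drawn up with their differences between the genotypes already known. The differences between genotypes are therefore given as a description, with no test. The study asked how the penis develops when the cells that once expressed *Nr5a1*, which enter the prepuce from outside the genitalia, are removed. Single-cell RNA libraries (10x, 3′ end) were made from male genitalia at embryonic day 16.5, with 2 libraries labelled DTA- (genotype label WT) and 2 labelled DTA+. Both groups carried the Cre-dependent diphtheria toxin allele *Rosa-LSL-DTA*, and only the DTA+ group also carried the *Nr5a1-Cre* transgene. *Nr5a1* is also active in the testis and the adrenal gland, so a loss of the *Nr5a1*-lineage cells of the genitalia and a loss of hormones made in those organs cannot be told apart in this design.

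A neuropeptide is made as part of a longer precursor protein, which convertases and carboxypeptidase E cut at pairs of basic residues and which is often amidated at its end. The released peptide acts on a receptor coupled to G proteins in the membrane of a nearby cell; opioid receptors couple to inhibitory G proteins, while the receptors of substance P, neurotensin and PACAP couple mostly to stimulating ones. These peptides are best known from neurons and sensory nerve fibres, but *Penk* in particular is also transcribed in the mesenchyme of embryonic organs.

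The stretches that code for the mature peptides were read from the reference genome (GRCm38, GENCODE vM21 coding annotation), because they show what each precursor transcript can release. Capitals mark the codons of the peptide. Lower case letters mark flanking codons, among them those at which the precursor is cut or the peptide is amidated. Each stretch is written 5′ to 3′ on the coding strand. Directly upstream of substance P lies an arginine codon, and the codon before it is for alanine, which is not a basic residue.
enkephalin copy 1: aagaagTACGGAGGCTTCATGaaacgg
enkephalin copy 6: aagaggTATGGGGGCTTCCTGaagcgc
nociceptin: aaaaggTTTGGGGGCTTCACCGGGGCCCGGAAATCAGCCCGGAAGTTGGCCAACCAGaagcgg
substance P: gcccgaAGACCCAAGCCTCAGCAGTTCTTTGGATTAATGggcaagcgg
neurokinin A: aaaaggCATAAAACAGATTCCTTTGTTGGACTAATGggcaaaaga
neurotensin: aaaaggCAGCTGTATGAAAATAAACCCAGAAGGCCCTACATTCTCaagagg
PACAP: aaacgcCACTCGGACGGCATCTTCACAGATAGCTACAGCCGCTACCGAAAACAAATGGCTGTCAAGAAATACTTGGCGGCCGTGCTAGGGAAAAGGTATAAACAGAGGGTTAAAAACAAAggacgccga
The enkephalin copies lie in exon 2 of *Penk* on the minus strand, at chr4:4134334-4134348 and chr4:4133941-4133955, and they are 2 of the 7 copies of 15 bases that were found in this one exon. Nociceptin, which is related to the opioid peptides, is coded once in *Pnoc*, in 51 bases of exon 3 on the minus strand (chr14:65404842-65404892). *Tac1* codes for substance P in exon 3 and for neurokinin A in exon 6 on the plus strand (chr6:7556732-7556764 and chr6:7559101-7559130). Neurotensin is coded in exon 4 of *Nts* on the minus strand (chr10:102482355-102482393). PACAP, in its form of 38 residues, is coded in exon 5 of *Adcyap1* on the plus strand (chr17:93203990-93204103). The counts below are 3′ tags of whole transcripts, so they do not tell which of these peptides a cell made or how a precursor was spliced. The receptor genes *Oprk1* and *Calcrl* lie at chr1:5588466-5606131 on the plus strand and at chr2:84330626-84425411 on the minus strand.

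The 4 libraries held 11343 to 12580 cell barcodes and 50779551 to 73577028 unique molecular identifiers (UMIs, each 1 captured transcript). Cells with 1000 to 7500 UMIs were kept if at most 25% of these were mitochondrial, 25% of *Hba* genes and 50% of *Hbb* genes. This left 31132 of 47040 barcodes, with 92 barcode sequences found in more than 1 library. The median depth of the kept cells was higher in the DTA- libraries (4700 and 4077 UMIs) than in the DTA+ libraries (3551 and 3560 UMIs). *Nr5a1* itself was seen in 1 or 2 UMIs per library, so it could not check the labels. Clustering without the 7 genes gave 27 clusters, of which 20 were mesenchymal. Each cluster is called here by its 2 leading genes, with a class name ending in "-like" where markers chosen earlier supported one. Counts were summed per library and cluster, and 15 mesenchymal clusters with at least 20 cells in every library were compared; a further sum over all 28631 mesenchymal cells did not depend on how these were divided. Levels are CPM, counts divided by the TMM-scaled library total and brought to a common total, and log2 differences are DTA+ minus DTA-, with their standard error (SE) from edgeR. With 2 libraries a group, labelled as separate replicates, the SDs and SEs cover the spread between these libraries only, and an exact permutation test of 1 value could not go below p = 0.333.

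Over all mesenchyme, each of the 7 genes passed the filter on low counts, and none had DTA- and DTA+ libraries that overlapped. *Pnoc*, *Tac1* and *Adcyap1* were higher in both DTA+ libraries than in both DTA- libraries, and *Oprk1*, *Penk*, *Nts* and *Calcrl* were lower. Of all genes tested in this sum, 50.4% also had groups that did not overlap, in either direction, and 1.89% were called at an adjusted p under 0.05. The 7 genes had been chosen on this contrast, so nothing further is read from their count. In such sums, fewer cells of a type and less RNA of a gene per cell cannot be told apart. The cluster with the leading genes Ly6a/Igfbp5 (subdermal prepuce-like) went from 243 and 820 cells in DTA- to 19 and 8 in DTA+, the Acta2/Actg2 cluster (smooth muscle-like) from 134 and 191 to 30 and 9, and the Iyd/Stmn2 cluster (general prepuce-like) went from 2 and 7 cells to 527 and 299. The values below are therefore given cluster by cluster.

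**Figure D1:**
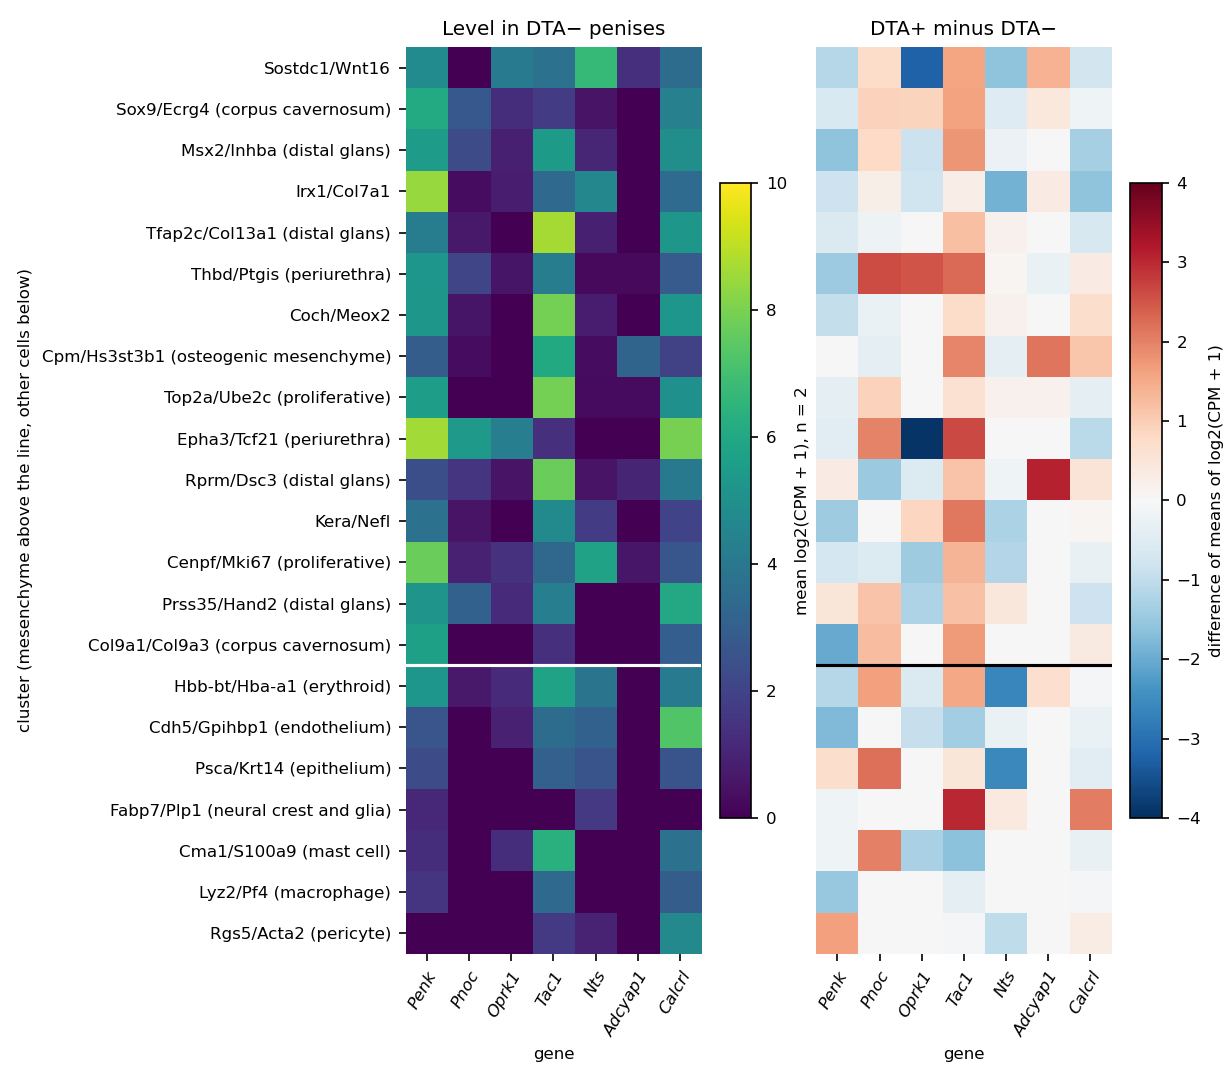
Level of each gene in the DTA- libraries (left, mean of log2(CPM + 1), n = 2) and the difference of the means of log2(CPM + 1) between DTA+ and DTA- (right) in 22 clusters with at least 20 cells in every library. Mesenchymal clusters are above the line, and class names in brackets are those given by markers. Colours are to be read down a column: *Penk* and *Calcrl* were highest in Epha3/Tcf21, *Nts* in Sostdc1/Wnt16 and *Tac1* in Tfap2c/Col13a1, and the *Tac1* column is red in most mesenchymal clusters.

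The order of the clusters described here in the DTA- libraries is given as means ± SD of CPM (n = 2), with no test, since the clusters were made from the same cells. *Penk* was at 389 ± 54.1 in Epha3/Tcf21 and 354 ± 31.8 in Irx1/Col7a1, which did not differ beyond their spread, then at 211 ± 19.8 in Cenpf/Mki67. *Pnoc* was at 41.5 ± 5.33 in Epha3/Tcf21, and Prss35/Hand2 stood at 7.65 ± 2.11. *Oprk1* was at 19.6 ± 8.7 in Epha3/Tcf21 and 17.8 ± 10.9 in Sostdc1/Wnt16, within each other's spread. Of these 3 genes, *Pnoc* alone stood apart in Epha3/Tcf21 from the next level given. *Tac1* was at 411 ± 133 in Tfap2c/Col13a1, 253 ± 109 in Top2a/Ube2c, 241 ± 8.94 in Coch/Meox2 and 234 ± 151 in Rprm/Dsc3, an order that the spread between libraries does not resolve. *Nts* was at 103 ± 4.77 in Sostdc1/Wnt16, 54.2 ± 8.91 in Cenpf/Mki67 and 24.3 ± 8.36 in Irx1/Col7a1, each apart from the next. *Adcyap1* was at 8.47 ± 1.33 in Cpm/Hs3st3b1 and at 1.67 ± 0.995 or less in the other tested clusters. *Calcrl* was at 249 ± 50.2 in Epha3/Tcf21 and 163 ± 66.1 in the endothelial cluster, which overlapped, then at 69.1 ± 33.8 in Prss35/Hand2. Outside the mesenchyme, *Calcrl* in endothelium and *Tac1* in mast cells (88.9 ± 54.3) were the high values. *Pnoc* had 1 UMI and *Adcyap1* 0 in the DTA- cells of the 7 other tested clusters.

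*Penk*, the precursor of the enkephalins, was highest in the Epha3/Tcf21 cluster, a periurethra-like population with the hedgehog pathway genes *Ptch1*, *Gli1* and *Hhip* among its markers, and next in Irx1/Col7a1. Of the listed periurethra markers, *Foxl2*, *Sall3*, *Irx3* and *Irx5* were not enriched in Epha3/Tcf21, and FOXL2 is the protein the paper stained to show the periurethra. In Epha3/Tcf21 the *Penk* level was 428 and 351 CPM in the DTA- libraries and 276 and 301 CPM in the DTA+ libraries. The DTA+ libraries were both lower, by a log2 difference of -0.43 ± 0.177 (SE). In Irx1/Col7a1 the levels were 332 and 377 CPM against 287 and 137 CPM, so the 2 DTA+ libraries differed from each other by more than the DTA- libraries did. The distal glans-like cluster Msx2/Inhba had a wider gap, with 40.3 and 47.6 CPM in DTA- and 14.9 and 12.3 CPM in DTA+, 3.23-fold lower, a log2 difference of -1.70 ± 0.244 (SE). In the Sox9/Ecrg4 cluster (corpus cavernosum-like) *Penk* stood at 68.0 and 68.7 CPM against 41.2 and 49.0 CPM. Coch/Meox2 had 39.1 and 37.3 CPM against 16.3 and 22.2 CPM, and Sostdc1/Wnt16 had 22.7 and 32.5 CPM against 14.7 and 9.19 CPM. *Penk* passed the filter in 12 of the 15 mesenchymal clusters. It was lower without overlap in 8 of these, overlapped in 4 and was higher without overlap in 0. Of all genes tested, 42.4% (Sostdc1/Wnt16) to 55.6% (Thbd/Ptgis) also had groups that did not overlap, in either direction. Among single clusters this share was computed only in Sostdc1/Wnt16, Thbd/Ptgis, Cpm/Hs3st3b1 and Epha3/Tcf21, so nothing further is read from such counts. Over all mesenchyme *Penk* was at 83.3 and 105 CPM in DTA- and 78.6 and 40.5 CPM in DTA+, a log2 difference of -0.67 ± 0.333 (SE). This sum leaned on 1 library, since the difference was -0.27 without the second DTA+ library and -1.22 without the first.

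The share of Epha3/Tcf21 cells with at least 1 *Penk* UMI was lower in DTA+ at full depth. It was 77.7% and 64% of cells in DTA- and 44.3% and 53.8% in DTA+. The 95% exact binomial intervals (Clopper-Pearson) of the 2 libraries ran from 58.1% to 82.3% in DTA- and from 36.7% to 58.6% in DTA+; intervals are given below in the same way, and they cover counting error only. After each cell was thinned to 1000 UMIs the shares were 32.7% and 24.1% against 18.4% and 24.2%, and the groups overlapped. The Epha3/Tcf21 cells were deeper in DTA- (medians of 4882.5 and 4032.5 UMIs) than in DTA+ (3019.5 and 3665 UMIs). Macrophages, which should lack the gene, had *Penk* UMIs in 1 of 63 cells of 1 library and in no cell of the other 3, at medians of 5152 to 5760 UMIs. The erythroid cluster held RNA of mesenchymal genes, so it is not a cluster that should lack *Penk*. Over all libraries and without TMM scaling it had *Pdgfra* at 84.25 CPM and *Col1a1* at 1354 CPM. Macrophages had these at 8.606 and 98.96 CPM. The erythroid cluster had *Penk* UMIs in 11.6% and 10.3% of DTA- cells and 6.71% and 4.84% of DTA+ cells, at medians of 4627.5 to 5184 UMIs. Its *Penk* level of 34.7 and 39.9 CPM against 24.5 and 10.7 CPM was lower in DTA+ as in the mesenchyme, and the part of free or mesenchymal RNA in the small counts of other clusters was not tested.

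*Pnoc*, the precursor of nociceptin, had its highest level in the Epha3/Tcf21 cluster and was higher in DTA+ penises there and in Thbd/Ptgis. The periurethra markers enriched in Thbd/Ptgis were *Foxf2*, *Irx3* and *Irx5* only, and of these Epha3/Tcf21 shared *Foxf2* alone. In Epha3/Tcf21 *Pnoc* was at 45.3 and 37.8 CPM in DTA- and at 202 and 139 CPM in DTA+, 4.1-fold higher, a log2 difference of 1.98 ± 0.217 (SE). In Thbd/Ptgis it went from 2.66 and 3.99 CPM to 33.3 and 19.2 CPM, on 6 and 7 UMIs against 44 and 31. The Prss35/Hand2 cluster (distal glans-like) had 6.16 and 9.15 CPM against 20 and 15.6 CPM. *Pnoc* passed the filter in 5 of the 15 clusters. It was higher without overlap in these 3 and overlapped in Sox9/Ecrg4 and Msx2/Inhba. Of all genes tested, 44.8% in Epha3/Tcf21 and 55.6% in Thbd/Ptgis did not overlap, in either direction. That share was not computed for Prss35/Hand2, Sox9/Ecrg4 and Msx2/Inhba, so nothing further is read from this count. In the sum over all mesenchyme *Pnoc* was at 4.57 and 2.83 CPM against 9.70 and 13.1 CPM.

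In Epha3/Tcf21, 12.3% and 8.74% of DTA- cells and 22.4% and 21.8% of DTA+ cells had a *Pnoc* UMI, with intervals from 5.74% to 16.6% in DTA- and from 16.5% to 29.3% in DTA+. Thinned to 1000 UMIs per cell, the shares were 3.67% and 2.45% against 12.6% and 9.20%. No macrophage had a *Pnoc* UMI in any library. So within the periurethra-like cluster Epha3/Tcf21 the opioid precursor *Penk* was lower in DTA+ while the related precursor *Pnoc* was higher. In this cluster 44.8% of all genes tested had groups that did not overlap.

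**Figure D2:**
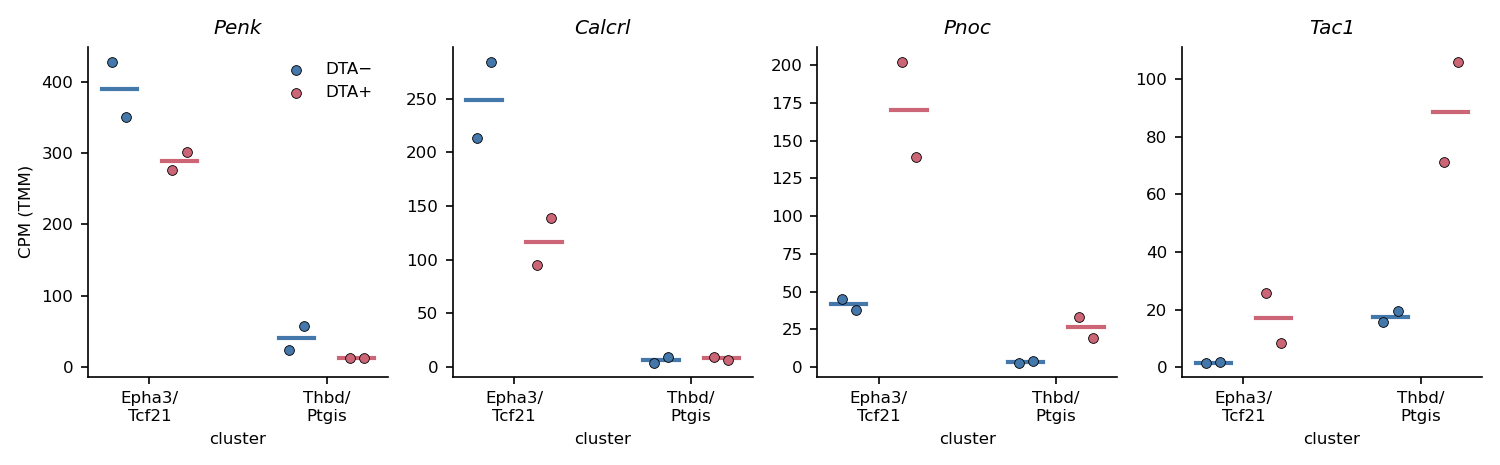
CPM (TMM-scaled, linear axes that differ between panels) of *Penk*, *Calcrl*, *Pnoc* and *Tac1* in 2 clusters with periurethra markers, which shared only *Foxf2* of these. Points are single libraries, blue DTA- and red DTA+, and bars are the means of 2 libraries. *Penk* and *Calcrl* points of DTA+ lie below those of DTA- in Epha3/Tcf21, and *Pnoc* and *Tac1* points of DTA+ lie above in both clusters.

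*Oprk1*, the kappa opioid receptor gene, was a low-count gene with opposite differences at different sites. It was seen in 245 UMIs over all DTA- mesenchyme and in 49 over all DTA+ mesenchyme. In the Sostdc1/Wnt16 cluster it was at 10.2 and 25.5 CPM in DTA- (30 and 106 UMIs) and 1.07 and 0.634 CPM in DTA+ (3 and 2 UMIs). The 2 DTA- libraries differed by more than 2-fold, and both stood far above the DTA+ libraries; the log2 difference was -4.38 ± 0.604 (SE). From the summed counts alone the DTA- level was 22 times the DTA+ level, with a 95% counting interval of 9.21 to 68.9. Such counting intervals take each UMI as independent and leave out the spread between cells and between libraries. In Epha3/Tcf21 the levels were 13.4 and 25.8 CPM (19 and 30 UMIs) against 0 and 0.652 CPM (0 and 1 UMIs). This was a ratio of 39.2 on 49 UMIs against 1, with a counting interval of 6.71 to 1580. In the Ly6a/Igfbp5 cluster, *Oprk1* had 6 and 14 UMIs in DTA- and 0 in both DTA+ libraries, but only 19 and 8 DTA+ cells were there to be counted.

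In the Thbd/Ptgis cluster the order was turned around. *Oprk1* was at 0 and 1.14 CPM in DTA- (0 and 2 UMIs) and at 10.6 and 4.97 CPM in DTA+ (14 and 8 UMIs). The ratio of DTA+ to DTA- was 15.6 with a counting interval of 3.84 to 137. Sox9/Ecrg4 had 1.63 and 1.36 CPM (4 and 3 UMIs) against 3.08 and 4.28 CPM (8 and 11 UMIs), a ratio of 2.63 with an interval of 1.06 to 7.41. Both clusters stood below the filter on low counts, so neither entered the fit, and *Oprk1* passed it only in Sostdc1/Wnt16 and Epha3/Tcf21, where DTA- was high. In Sostdc1/Wnt16, Thbd/Ptgis, Epha3/Tcf21 and Sox9/Ecrg4 no library of one group overlapped with the other. The share of all genes tested without overlap was 42.4% in Sostdc1/Wnt16 and 55.6% in Thbd/Ptgis.

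Few cells carried these counts. In Sostdc1/Wnt16, *Oprk1* UMIs were found in 3.56% and 6.21% of DTA- cells and in 0.291% and 0.287% of DTA+ cells (thinned, 1.19% and 1.5% against 0% and 0.143%). The intervals ran from 2.22% to 7.89% in DTA- and from 0.0347% to 1.05% in DTA+. In Epha3/Tcf21 the shares were 5.33% and 7.69% in DTA-; 0 of 174 cells in the first DTA+ library, which allows a share of up to 1.72% (3 counts over the cells, a limit that differs from the exact interval), and 0.242% in the second. In Thbd/Ptgis they were 0 of 472 cells, which allows up to 0.636%, and 0.466% in DTA-, and 1.97% and 1.71% in DTA+ (thinned, 0% and 0% against 0.875% and 0.428%). The intervals there met, reaching 1.67% in the second DTA- library and starting at 0.742% in the second DTA+ library. The Thbd/Ptgis shares were higher in DTA+ although those cells were shallower, with medians of 2723 and 3255 UMIs against 4984.5 and 4110 UMIs. In Sox9/Ecrg4 the shares were 0.602% and 0.549% in DTA- and 1.06% and 1.16% in DTA+. The intervals overlapped there, from 0.113% to 1.75% in DTA- and from 0.459% to 2.27% in DTA+. No macrophage had an *Oprk1* UMI.

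The opposite order was looked for in other clusterings of the same cells, with levels given as CPM without TMM scaling. At a clustering resolution of 1.2 the cells of Thbd/Ptgis were divided by genotype, and a cluster led by Stc1/Dcc, with 65 and 28 DTA- cells and 458 and 476 DTA+ cells, had *Oprk1* at 0 and 0 CPM against 10.8 and 6.72 CPM. At a resolution of 0.4 the cluster Kera/Angptl1 had 0 and 1.06 CPM against 6.16 and 5.11 CPM. With no upper limit on UMIs the cluster Ptgis/Thbd had 1.16 and 0.983 CPM against 10.0 and 7.24 CPM. When 3453 genes called between the genotypes were left out of the clustering, no cluster matched 7 of the 15 clusters, among them Thbd/Ptgis, Epha3/Tcf21 and Cpm/Hs3st3b1, at a share of common cells (Jaccard index) of at least 0.3. There *Oprk1* was higher in DTA+ in Ecrg4/Col9a1, at 0 and 1.88 CPM (0 and 4 UMIs) against 3.38 and 3.41 CPM (7 and 7 UMIs). In Agtr2/Dlk1 the levels were 1.24 and 1.40 CPM (3 and 6 UMIs) against 2.60 and 2.29 CPM (6 and 8 UMIs). *Oprk1* was lower in Sostdc1/Gria2 (10.3 and 23.8 CPM against 0.315 and 0.278 CPM), in Epha3/Foxd1 (7.01 and 15.2 CPM against 1.27 and 0.520 CPM) and in Fbln7/Dpp6 (6.24 and 12.6 CPM against 0 and 0 CPM). Each clustering thus held clusters on both sides, but the cells on the higher side were not the same set, and their counts stayed at 14 UMIs or fewer in any one library. The clusterings regroup the same cells, so they are not independent support for an order that was known when the genes were chosen.

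**Figure D3:**
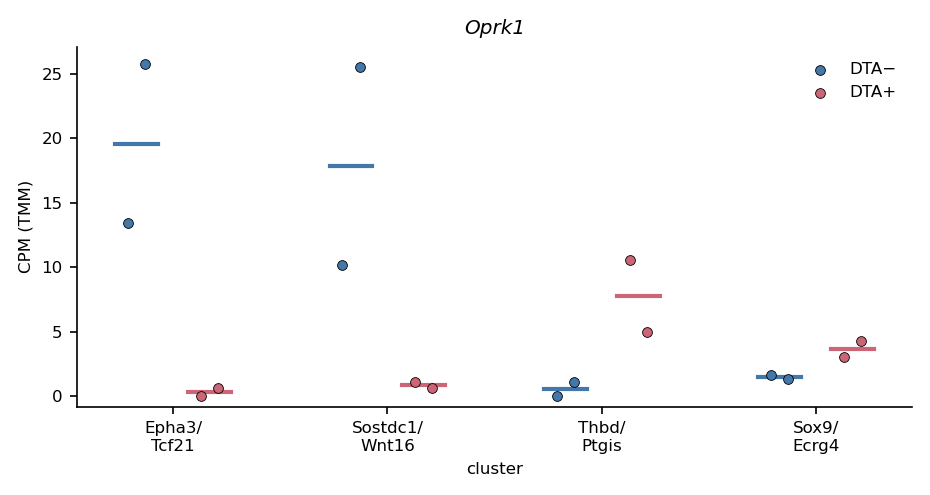
CPM of *Oprk1* (TMM-scaled, linear axis) in 4 mesenchymal clusters. Points are single libraries, blue DTA- and red DTA+, and bars are the means of 2 libraries. DTA- points are above DTA+ points in Epha3/Tcf21 and Sostdc1/Wnt16, and DTA+ points are above in Thbd/Ptgis and Sox9/Ecrg4, where counts were low.

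*Tac1*, the precursor of substance P and neurokinin A, was higher in DTA+ in more clusters than any other of the 7 genes. Its highest level was in Tfap2c/Col13a1, a distal glans-like cluster that *Tac1* itself also marked, at 505 and 317 CPM in DTA- and 788 and 1070 CPM in DTA+. The log2 difference there was 1.17 ± 0.359 (SE). Coch/Meox2 had 235 and 247 CPM against 358 and 457 CPM. The larger ratios were in clusters with less *Tac1* at the start. Thbd/Ptgis had 15.5 and 19.4 CPM against 71.2 and 106 CPM, 5.07-fold higher, with a log2 difference of 2.36 ± 0.238 (SE), and Epha3/Tcf21 had 1.42 and 1.72 CPM (2 and 2 UMIs) against 25.9 and 8.47 CPM (15 and 13 UMIs). Kera/Nefl went from 34.3 and 19.8 CPM to 91.2 and 148 CPM. *Tac1* passed the filter in 14 of the 15 clusters and was higher without overlap in 10. The groups overlapped in 4, among them Rprm/Dsc3 (distal glans-like), which had 341 and 127 CPM against 292 and 721 CPM. In 0 mesenchymal clusters was it lower without overlap. Of all genes tested, 42.4% to 55.6% did not overlap in the single clusters where that share was computed, in either direction.

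Over all mesenchyme the 2 libraries of a group differed in *Tac1*, at 112 and 54.5 CPM against 120 and 229 CPM, so the lowest DTA+ library was close to the highest DTA- library. In the cluster Cpm/Hs3st3b1 (osteogenic mesenchyme-like) they were 133 and 33.6 CPM against 234 and 291 CPM, a log2 difference of 1.53 ± 0.699 (SE) that was 2.97 without the first DTA- library. The share of cells with a *Tac1* UMI in Tfap2c/Col13a1 was 59.8% and 47.0% in DTA- and 69.3% and 80.4% in DTA+, and thinned 31.3% and 23.7% against 46.8% and 57.3%. The intervals ran from 42% to 63.8% in DTA- and from 64.2% to 83.1% in DTA+. Macrophages had *Tac1* UMIs in 1 or 2 cells per library, 1.59% to 3.92%. The erythroid cluster had 14.7% and 12.3% of cells with a *Tac1* UMI in DTA- and 14.0% and 38.7% in DTA+. Its *Tac1* level of 58.3 and 48.1 CPM against 93.4 and 260 CPM moved with the mesenchyme, as *Penk* did there. Mast cells went the other way, with 127 and 50.5 CPM (25 and 10 UMIs) against 22.8 and 27.7 CPM (6 and 6 UMIs). These UMIs came from 3 and 5 cells in DTA- and 4 and 4 cells in DTA+, and the shares of 4.23% and 8.93% against 4.94% and 6.67% overlapped.

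*Nts*, the precursor of neurotensin and neuromedin N, was found mostly in the Sostdc1/Wnt16 cluster, which held 65.1% of its mesenchymal UMIs in DTA-. Its level there was 107 and 99.9 CPM in DTA- and 31.2 and 35.8 CPM in DTA+. Replicates lay close together, and the DTA+ mean was 3.08-fold lower, with a log2 difference of -1.62 ± 0.185 (SE). Irx1/Col7a1 had 30.2 and 18.4 CPM against 5.33 and 6.07 CPM, and the cycling cluster Cenpf/Mki67 had 60.5 and 47.9 CPM against 25.2 and 21.3 CPM. These were the 3 of the 15 clusters in which *Nts* passed the filter, and all 3 were lower without overlap. In Sostdc1/Wnt16, 42.4% of all genes tested did not overlap, in either direction. That share was not computed for Irx1/Col7a1 and Cenpf/Mki67. Over all mesenchyme the *Nts* level was 17.4 and 21.8 CPM against 5.64 and 4.81 CPM, a log2 difference of -1.91 ± 0.183 (SE). In Sostdc1/Wnt16, 20.7% and 17.5% of DTA- cells and 6.99% and 7.31% of DTA+ cells had an *Nts* UMI (thinned, 7.12% and 8.01% against 3.06% and 2.44%). The intervals ran from 15.2% to 24.2% in DTA- and from 5.2% to 9.5% in DTA+. No macrophage had one. Of erythroid cells, 3.88% and 2.56% in DTA- and 0.61% and 0% in DTA+ had an *Nts* UMI, and their level of 14.2 and 12.9 CPM against 4.59 and 0 CPM was also lower in DTA+. Sostdc1/Wnt16 cells numbered 590 and 999 in DTA- and 687 and 698 in DTA+, with median depths of 5299 and 4199 UMIs against 3992 and 4446 UMIs. In this cluster *Nts*, *Oprk1*, *Penk* and *Calcrl* were all lower in DTA+, while *Tac1* (12.9 and 12 CPM against 48.3 and 31.7 CPM) and *Adcyap1* were higher.

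*Adcyap1*, the precursor of PACAP, was the rarest of the precursors, with 38 UMIs over all DTA- mesenchyme and 239 over all DTA+ mesenchyme. The Cpm/Hs3st3b1 cluster held 50% of the former and 53.1% of the latter. Its level there was 7.53 and 9.42 CPM in DTA- and 44.0 and 36.8 CPM in DTA+, 4.77-fold higher, with a log2 difference of 2.27 ± 0.337 (SE). Sostdc1/Wnt16 had 2.37 and 0.963 CPM (7 and 4 UMIs) against 5.01 and 6.65 CPM (14 and 21 UMIs). Rprm/Dsc3 had 3 and 0 UMIs against 5 and 44 UMIs and did not pass the filter. In Cpm/Hs3st3b1 the share of cells with a UMI was 2.89% and 2.09% against 10% and 9.59%, with intervals from 0.683% to 5.11% and from 6.92% to 13.9%. Thinned, the shares were 1.31% and 0.837% against 2.91% and 3.2%. In this cluster 46.3% of all genes tested had groups that did not overlap. Macrophages had no *Adcyap1* UMI.

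*Calcrl* encodes the receptor that binds calcitonin gene-related peptide when it is paired with RAMP1 and adrenomedullin when it is paired with RAMP2 or RAMP3. It is best known from vessels, and the endothelial cluster had 116 and 210 CPM in DTA- and 117 and 143 CPM in DTA+, which overlapped. In the mesenchyme it was highest in Epha3/Tcf21, at 213 and 284 CPM against 94.8 and 139 CPM. Both DTA+ libraries were lower, by a log2 difference of -1.03 ± 0.189 (SE). Prss35/Hand2 had 45.2 and 93.0 CPM against 34.6 and 38.2 CPM. Irx1/Col7a1 and Msx2/Inhba had log2 differences of -1.63 ± 0.44 and -1.43 ± 0.332 (SE). *Calcrl* passed the filter in 11 of the 15 clusters, was lower without overlap in 6 and overlapped in 5. Among the latter, Coch/Meox2 had 32.4 and 43.0 CPM against 90.8 and 42.3 CPM, where the first DTA+ library stood alone. In Cpm/Hs3st3b1, where *Calcrl* did not pass the filter, it was at 1.88 and 4.04 CPM (3 and 3 UMIs) against 5.87 and 8.98 CPM (6 and 20 UMIs). Where the share of all genes tested without overlap was computed in single clusters, it was 42.4% to 55.6%. The share of Epha3/Tcf21 cells with a *Calcrl* UMI was 54.3% and 59.8% against 24.1% and 31.7%, with intervals from 48.5% to 65.5% and from 18% to 36.4%. Thinned, the shares were 14.7% and 22.7% against 10.3% and 12.8%. Macrophages had one in 1 to 3 cells per library. Markers of endothelium were higher in DTA+ in Epha3/Tcf21. The summed level of the 8 endothelial markers, all 8 of which had a UMI, was 22.6 and 9.44 CPM in DTA- and 53.5 and 41.7 CPM in DTA+. The part of endothelial RNA in the *Calcrl* levels was not tested.

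Over all mesenchyme the 9 neuron markers summed to 23.8 and 35.5 CPM in DTA- and 51.7 and 47.8 CPM in DTA+; 8 of the 9 had a UMI. In Epha3/Tcf21 the sums were 4.96 and 12.9 CPM against 12.1 and 9.11 CPM, with *Tubb3* and *Stmn3* among the markers at 0. In Thbd/Ptgis they were 11.5 and 17.1 CPM against 7.58 and 8.06 CPM. In Sostdc1/Wnt16, where *Tac1* and *Adcyap1* were higher in DTA+, the neuron markers were higher too, at 34.9 and 50.6 CPM against 78.4 and 87.5 CPM without overlap. In Cpm/Hs3st3b1 they were at 46.5 and 28.2 CPM against 80.2 and 34.1 CPM, which overlapped. The higher sums in DTA+ moved with *Tac1*, *Pnoc* and *Adcyap1* over all mesenchyme and with *Tac1* and *Adcyap1* in Sostdc1/Wnt16. *Pnoc* did not pass the filter in Sostdc1/Wnt16, with 0 and 0 UMIs against 2 and 2. In Epha3/Tcf21 and Thbd/Ptgis, where *Pnoc* was higher in DTA+, the neuron marker sums overlapped and were lower, respectively. The part of neuron RNA in the levels of these genes was not tested. *Fkbp5*, a gene induced by glucocorticoids, was at 79.8 and 81.1 CPM in DTA- and 12.5 and 12.7 CPM in DTA+ over all mesenchyme (adjusted p = 0.0002, edgeR quasi-likelihood test with Benjamini-Hochberg adjustment). Of the 10 glucocorticoid-induced genes listed, 2 were called lower in that sum, where 1.89% of all genes were called. In Sostdc1/Wnt16 4 of 10 tested were called lower (2.31% of all genes called). In Epha3/Tcf21 4 of 9 were called lower (against 5.39%) and in Thbd/Ptgis 6 of 9 (against 14.5%). Lower calls were not confined to these clusters, with 4 of 9 in Sox9/Ecrg4 (against 10.4%) and 1 of 8 in Cpm/Hs3st3b1 (against 3.52%). *Fkbp5* was called lower in each of the 15 mesenchymal clusters compared except Col9a1/Col9a3. Calls in the higher direction were *Dusp1* in Thbd/Ptgis and Cpm/Hs3st3b1, *Sgk1* in Sox9/Ecrg4 and Prss35/Hand2, and *Klf9* in Tfap2c/Col13a1. Of 10 genes that respond to tissue dissociation, 0 were called in the sum. *Fos* and *Egr1* were called higher in Epha3/Tcf21 (2 of 10, against 5.39% of all genes). *Fos*, *Egr1* and *Junb* were called higher in Cpm/Hs3st3b1 (3 of 10, against 3.52%), and *Ier2* and *Junb* in Tfap2c/Col13a1 (2 of 8, against 9.25%). *Junb* was called lower in Thbd/Ptgis (1 of 10, against 14.5%) and *Hspa1a* in Sox9/Ecrg4 (1 of 10, against 10.4%). *Jun* was called lower in Rprm/Dsc3 (1 of 9, against 0.451%) and Col9a1/Col9a3 (1 of 7, against 0.481%). The part of these in the members' differences was not tested. A change of hormone supply and the loss of *Nr5a1*-lineage cells cannot be told apart from these values.

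The likely partners of the 7 genes were looked up whatever their values, and some of the receptors are not reported here. *Pdyn*, the precursor of the dynorphins that bind the kappa receptor, had 1 UMI over all mesenchyme of the 4 libraries. The genes of the other opioid receptors were as rare, with 1 UMI of *Oprm1*, 2 of *Oprd1* and 3 of *Oprl1*, the nociceptin receptor. *Pomc*, another opioid precursor, was at 4.43 and 3.41 CPM in DTA- and 2.77 and 3.52 CPM in DTA+. *Ackr3*, a scavenger receptor that also takes up opioid peptides, was at 44.8 and 41.8 CPM against 25.2 and 47.4 CPM, and the groups overlapped. Of the neurotensin receptors, *Ntsr1* was at 0.363 and 0.170 CPM against 0.627 and 0.796 CPM, *Ntsr2* had 0 UMIs, and *Sort1*, a sorting receptor, was at 10.2 and 12.5 CPM against 12.4 and 13 CPM. The tachykinin receptor gene *Tacr2* had 0 UMIs, and *Tacr3* was at 0.0363 and 0.102 CPM against 0.443 and 0.429 CPM. The PACAP receptor *Vipr2* was at 5.04 and 5.22 CPM against 7.93 and 5.79 CPM. *Tacr3*, *Ntsr1* and *Vipr2* were each higher in both DTA+ libraries and were not called (edgeR adjusted p = 0.0978, 0.197 and 0.361), while the opioid receptor genes other than *Oprk1* had too few UMIs at this depth for a difference to be detectable. *Calca*, which codes for calcitonin gene-related peptide, was highest in mast cells, at 336 and 1390 CPM against 784 and 845 CPM.

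The genes of peptide signalling other than the 7 were tested as a list of 105, which covers opioid receptors, precursors, receptors, processing enzymes, peptidases and G protein partners. The list was chosen with earlier results of these data known. Over all mesenchyme 68 were tested and 5 were called (7.35%, against 1.89% of all genes), 2 higher and 3 lower. The median log2 difference of the list was -0.01, beside 0.00 over all genes. By part of the list, 0 of 3 opioid ligands and receptors were called, 3 of 12 other precursors, 1 of 16 other receptors, 0 of 13 processing genes, 0 of 12 peptidases and 1 of 12 genes of G protein coupling. *Rgs4*, a regulator that ends inhibitory G protein signals, rose from 0.544 and 1.53 CPM to 5.86 and 6.37 CPM (adjusted p = 0.0313, edgeR quasi-likelihood test with Benjamini-Hochberg adjustment). *Calcb*, a second calcitonin gene-related peptide gene, rose from 0.0363 and 0.0682 CPM to 0.553 and 0.551 CPM (edgeR adjusted p = 0.045). Its DTA- levels were near the floor, so *Calcb* passed the filter on low counts only through the DTA+ libraries. *Npy*, the neuropeptide Y precursor, fell from 4.75 and 3.44 CPM to 0.369 and 0.367 CPM (edgeR adjusted p = 0.00488). *Ramp3* fell from 39.3 and 49.3 CPM to 18.7 and 19.9 CPM (edgeR adjusted p = 0.0131), and *Grp*, the precursor of gastrin-releasing peptide, fell by 3.28 on the log2 scale (edgeR adjusted p = 0.044).

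Within clusters, *Ramp1*, a partner of *Calcrl*, was the list gene called most often among those described, lower in 7 clusters and higher in 0. In Epha3/Tcf21, where *Calcrl* was highest, it fell from 82.8 and 87.6 CPM to 8.62 and 7.17 CPM, a log2 difference of -3.47 ± 0.34 (SE; edgeR adjusted p = 9.81e-22). Over all mesenchyme *Ramp1* had 51.2 and 64.3 CPM against 33.2 and 16.2 CPM and was not called (edgeR adjusted p = 0.194). *Ramp3* was called lower in 4 clusters, among them Sostdc1/Wnt16, where it fell from 83.6 and 113 CPM to 26.5 and 37.4 CPM (edgeR adjusted p = 0.000571). *Ramp2* was called lower in 2 clusters, Tfap2c/Col13a1 and Coch/Meox2. So in Epha3/Tcf21 the receptor gene *Calcrl* and its partner gene *Ramp1* were both lower in DTA+. *Ramp1* was also a leading gene of the smooth muscle-like cluster Acta2/Actg2, which had 134 and 191 cells in DTA- and 30 and 9 in DTA+. The part of smooth muscle RNA in the *Ramp1* levels of other clusters was not tested.

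Genes that make or remove peptides were also called. *Cpe*, which trims the basic residues left after precursors are cut, was called lower in 5 clusters; in Epha3/Tcf21 it fell from 42.5 and 69.5 CPM to 24.1 and 13 CPM (edgeR adjusted p = 3.37e-06). *Cpm*, a carboxypeptidase of the cell surface, was called higher in 6 clusters; in the cluster named after it, it rose from 259 and 190 CPM to 456 and 425 CPM (edgeR adjusted p = 0.00091). *Rgs19* was called lower in 2, and *Pcsk6*, a convertase, was called higher in Sox9/Ecrg4 and lower in Cpm/Hs3st3b1. *Rgs4* was called in Sostdc1/Wnt16, the cluster with most *Nts* and much of the *Oprk1*, where it rose from 2.03 and 2.89 CPM to 16.8 and 22.5 CPM (edgeR adjusted p = 0.000263). *Npy* was called in Thbd/Ptgis, with 25.3 and 29.1 CPM in DTA- and 0 in both DTA+ libraries (edgeR adjusted p = 1.99e-09).

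The counts of list genes called are read against the share of all genes called in the same cluster. In Sostdc1/Wnt16 4 of 44 were called (9.09%, against 2.31% of all genes) and in Cpm/Hs3st3b1 5 of 30 (16.7%, against 3.52%). In Coch/Meox2 7 of 35 were called (20%, against 12.3%), in Sox9/Ecrg4 6 of 38 (15.8%, against 10.4%) and in Tfap2c/Col13a1 4 of 34 (11.8%, against 9.25%). Epha3/Tcf21 had 2 of 36 (5.56%, against 5.39%) and Thbd/Ptgis 5 of 38 (13.2%, against 14.5%), which were close to the shares of all genes. Msx2/Inhba had 2 of 37 (against 1.45%), Kera/Nefl 2 of 34 (against 0.924%), Irx1/Col7a1 1 of 41 (against 0.992%), Rprm/Dsc3 1 of 26 (against 0.451%) and Cenpf/Mki67 1 of 34 (against 0.524%). Top2a/Ube2c, Prss35/Hand2 and Col9a1/Col9a3 had 0 of 35, 0 of 27 and 0 of 10, against 1.44%, 1.68% and 0.481% of all genes. List medians stayed between -0.14 and 0.13 on the log2 scale in all 15 clusters. Of the 40 calls over these clusters, 11 were higher and 29 lower in DTA+, with several genes counted in more than 1 cluster. *Ramp1*, *Cpe*, *Ramp3* and *Ramp2* made 7, 5, 4 and 2 of the lower calls. Thbd/Ptgis had 0 higher and 5 lower, beside 658 higher and 793 lower over all genes. Coch/Meox2 had 2 higher and 5 lower, beside 638 higher and 582 lower over all genes.

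**Figure D4:**
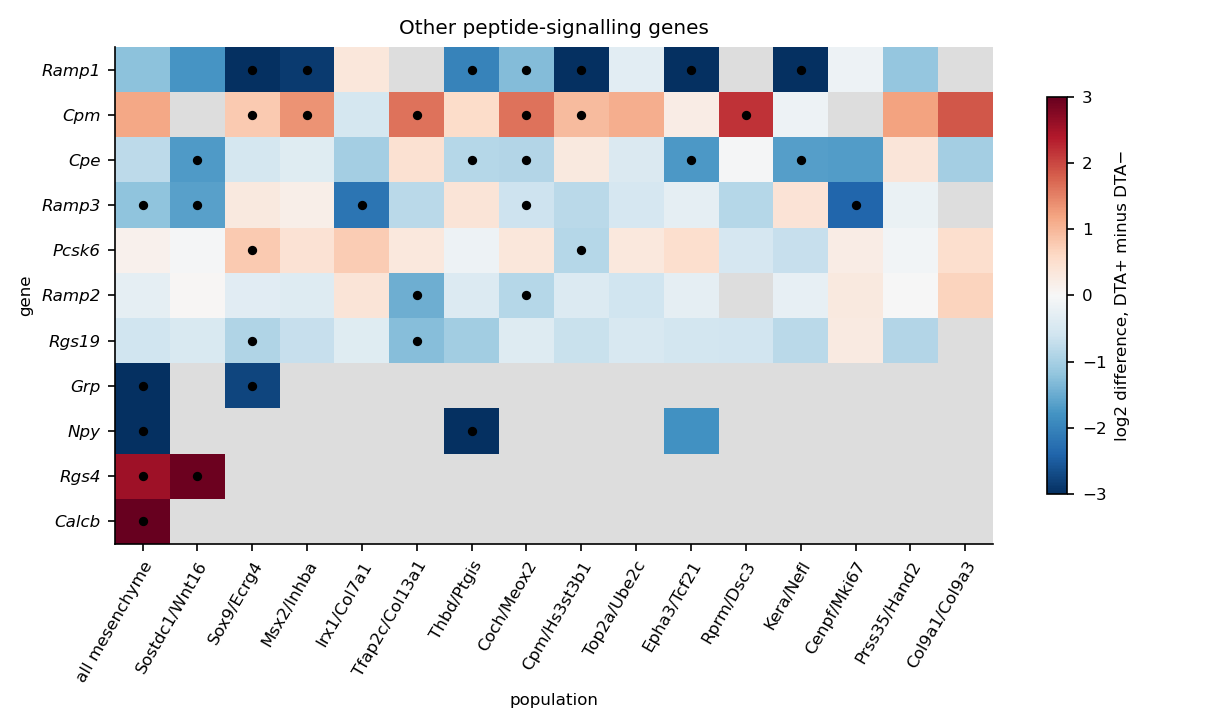
Log2 difference, DTA+ minus DTA-, of 11 genes of peptide signalling called over all mesenchyme or in at least 2 mesenchymal clusters. Colours end at -3 and 3, grey means not tested for low counts, and dots mark adjusted p under 0.05 (edgeR quasi-likelihood test). The *Ramp1* and *Cpe* rows have dots only on blue, and the *Cpm* row only on red.

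The 7 genes did not share 1 pattern across populations. Over the 2 DTA- libraries of 25 populations (50 points, which share libraries and depth), the highest Pearson correlations of log2(CPM + 1) were 0.531 for *Pnoc* with *Calcrl* and 0.499 for *Pnoc* with *Penk*, followed by 0.445 for *Oprk1* with *Pnoc*. The lowest was -0.329, for *Pnoc* with *Nts*. Genes with the pattern most like that of a member, by the same measure, were *Gli1* (0.799), *Fat4* (0.769) and A830012C17Rik (0.853) for *Penk*, and *Tceal6* (0.698), Gm48662 (0.692) and *Epha3* (0.673) for *Pnoc*. For *Oprk1* they were *Col6a4* (0.689), *Fam102b* (0.684) and *Col6a6* (0.663), and for *Nts* *Pou3f3* (0.836), *Adh7* (0.808) and *Fndc1* (0.799). *Tac1* was most like *Dach1* (0.735), *Bmp7* (0.725) and *Col13a1* (0.714), *Adcyap1* like *Esr1* (0.64), D030025E07Rik (0.62) and *Sall4* (0.605), and *Calcrl* like *Prom1* (0.697), *Sall3* (0.646) and *Chst15* (0.64).

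Most of the differences kept their direction when the processing was changed. Many of the settings refit the same summed counts, so they could hardly turn a sign. A cluster with no match in another clustering gave no value there. Over 56 pairs of a member and a population, 813 values were computed under other settings, and 25 of them, in 8 pairs, had the opposite sign. Only *Penk* in Thbd/Ptgis was among the pairs with a reported difference of 1 or more on the log2 scale. There the level was 24.0 and 58.1 CPM against 12.9 and 13 CPM, a log2 difference of -1.62 ± 0.429 (SE), which became 0.44 when the cells were clustered at a resolution of 1.2 and the cluster was divided by genotype. *Oprk1* stayed between -5.79 and -3.53 in Sostdc1/Wnt16 and, as the log2 ratio of summed UMIs over totals (3.96 as reported), between 2.76 and 4.48 in Thbd/Ptgis under the 7 settings that gave a value there. *Pnoc* in Epha3/Tcf21 stayed between 1.73 and 2.27, and *Adcyap1* in Cpm/Hs3st3b1 between 1.63 and 2.41.

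**Figure D5:**
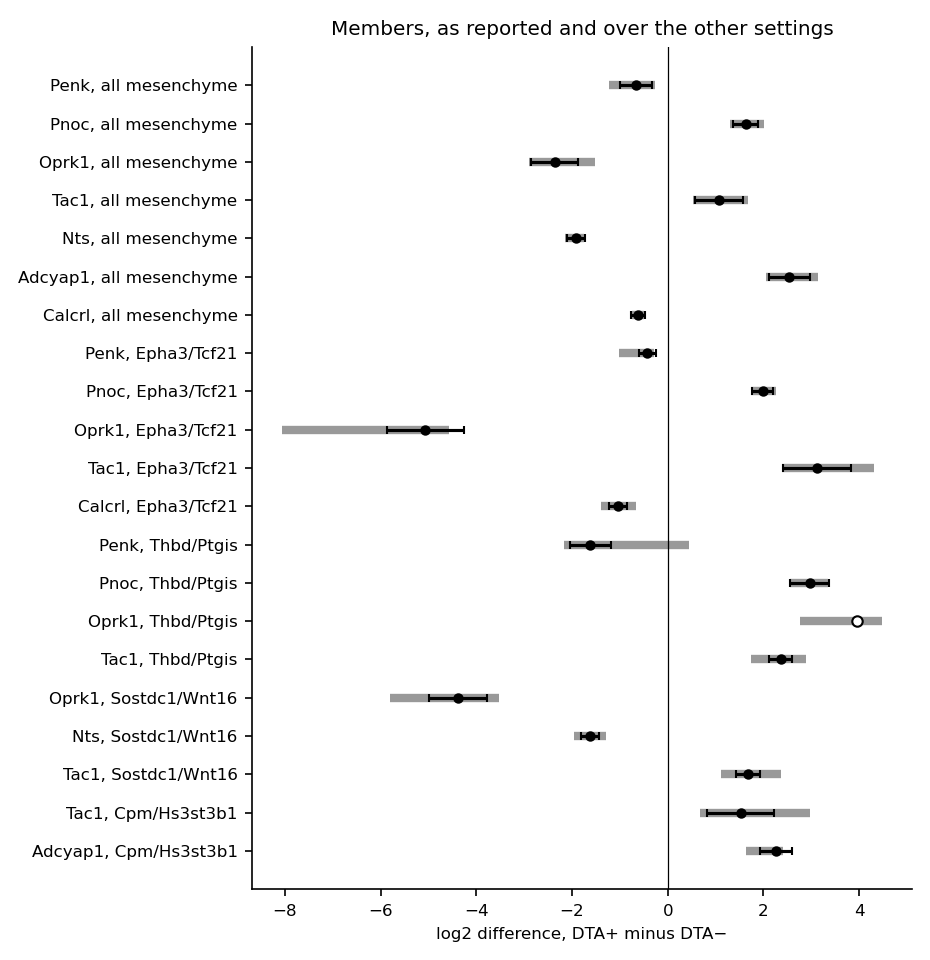
Log2 difference, DTA+ minus DTA-, of the members in the populations described. Points are the values reported with their SE (bars), the open point is the log2 ratio of summed UMIs over summed totals, for a gene below the filter on low counts, and grey bands run from the lowest to the highest value over the other settings. The grey band of *Penk* in Thbd/Ptgis, from -2.17 to 0.44, is the 1 that crosses 0.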

How the data were processed

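Gene expression was measured by 10x 3′ single-cell RNA-seq in 4 libraries. The authors aligned the reads to mm10 (GRCm38) with Cell Ranger (4.0.0 per the file headers) and deposited UMI counts per gene and barcode. Cells with 1000 to 7500 UMIs, at most 25% mitochondrial, 25% *Hba* and 50% *Hbb* UMIs were clustered with Seurat 5.3.0 (2000 variable genes without the 7 members, 30 components, resolution 0.8). Clusters were named from marker lists. Counts were summed per library and cluster and tested with edgeR 4.0.16 (TMM, low-count filter, quasi-likelihood test, Benjamini-Hochberg adjustment over all genes tested, threshold 0.05) in R 4.3.3. The test was also run on simulated counts, with an outcome that is not reported here. Named list genes were those called over all mesenchyme or in 2 or more mesenchymal clusters, plus cognate ligands and receptors, plus the 3 genes most correlated with each member. The members and the lists were chosen with earlier results of these data known. Doublets were kept. Scrublet (scanpy 1.11.5) called 2 cells in all, which does not show that doublets were rare. Leaving out its 346 to 621 highest scores per library, at an assumed rate of 0.8% per 1000 cells, was an alternative. Others were DESeq2 1.42.0, edgeR's likelihood ratio test, no low-count filter, other resolutions, no upper UMI limit, thinning to 1000 UMIs and leaving out each library. A tested mesenchymal cluster and some list genes are not reported here.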

Additional observations from a re-analysis of the deposited data

Results flagged for a closer look

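*Oprk1* had opposite differences between clusters, with every library of one group above every library of the other in each. The mean CPM of DTA+ over that of DTA- was 0.0479 in Sostdc1/Wnt16 and 0.0166 in Epha3/Tcf21, but 13.7 in Thbd/Ptgis and 2.47 in Sox9/Ecrg4. *Tac1* had a ratio of 11.0 in Epha3/Tcf21 and 5.07 in Thbd/Ptgis, but 0.284 in the mast cell cluster Cma1/S100a9, where 3 to 5 cells per library held the UMIs. *Calcrl* had a ratio of 0.28 in Irx1/Col7a1 and 0.378 in Msx2/Inhba, but 2.51 in Cpm/Hs3st3b1. These differences between clusters were not tested, and the members had been chosen with the *Oprk1* pattern known. Of the clusters with a ratio on the rarer side, Thbd/Ptgis and Sox9/Ecrg4 held 24 and 26 *Oprk1* UMIs, the mast cells 47 *Tac1* UMIs and Cpm/Hs3st3b1 32 *Calcrl* UMIs over the 4 libraries. For each gene, only clusters with at least 20 UMIs and no overlap between the groups were looked at. *Tac1* was higher in 11 such clusters and lower in 1, and *Calcrl* was higher in 1 and lower in 6. On the commoner side only the largest differences are given. Of all genes tested, 42.4% to 55.6% did not overlap in the single clusters where that share was computed. *Calcrl* in Cpm/Hs3st3b1 did not pass the filter on low counts, nor did *Oprk1* in Thbd/Ptgis and Sox9/Ecrg4.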

How the results depend on the processing

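The number of genes called depended on the test and on the cells counted, and the cause was not tested. Over all mesenchyme it was 288, against 618 with DESeq2, 920 with the likelihood ratio test, 1215 with no filter on low counts and 161 to 458 without 1 library. In Sostdc1/Wnt16 it was 258, against 157, 389, 510 and 177 to 963 in the same order, 685 at resolution 0.4, 395 with no upper UMI limit, 120 with thinned cells and 479 with genotype genes left out of the clustering. In Thbd/Ptgis it was 1451, against 451 with DESeq2, 821 at resolution 0.4, 122 at resolution 1.2, 453 with thinned cells and 570 to 1842 without 1 library. In Cpm/Hs3st3b1 it was 334, against 100 with DESeq2, 176 and 6 at resolutions 0.4 and 1.2, 92 with no upper limit, 72 with thinned cells and 223 to 501 without 1 library. In Epha3/Tcf21 it was 509, against 145 with DESeq2, 178 with thinned cells and 309 to 420 without 1 library. Of the peptide list, 5 genes were called over all mesenchyme, against 8 with DESeq2, 14 with the likelihood ratio test, 13 with no filter and 4 to 10 without 1 library.

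The replicate numbers were not shown to pair the libraries (correlation of the replicate differences -0.264 over 15268 genes). With the replicate number as a replicate block, 739 genes and 13 list genes were called over all mesenchyme, and 631 genes in Cpm/Hs3st3b1. With the crossed block, added after the data were seen, the counts were 2400 genes and 22 list genes over all mesenchyme, 549 in Sostdc1/Wnt16 and 516 in Cpm/Hs3st3b1.

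At resolution 1.2, *Penk* in Thbd/Ptgis became 0.44 and *Cpe* there 0.421 on the log2 scale. Of the named list genes' values, 467 kept direction and call, 69 kept the direction only and 1 turned. When genotype genes were left out of the clustering, no cluster matched Msx2/Inhba, Thbd/Ptgis, Coch/Meox2, Cpm/Hs3st3b1, Epha3/Tcf21, Kera/Nefl or Cenpf/Mki67 (Jaccard index of at least 0.3), and at resolution 0.4 none matched Rprm/Dsc3, Prss35/Hand2 or Col9a1/Col9a3. Depth limits *Oprk1* and *Adcyap1* in single clusters, and with 2 libraries a group 1 library can decide a difference.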
